A study of Mus musculus with 15 samples.

Results

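The comparison covers 6 of the 15 mouse liver libraries of the series. The 3 CTNNB1-NFE2L2-MET livers carried S45Y-CTNNB1, G31A-NFE2L2 and human MET (hMET), and the 3 CTNNB1-MET livers carried S45Y-CTNNB1 and hMET without the NFE2L2 mutant. Both groups therefore share the β-catenin mutant and hMET, and they differ by the mutant NRF2, the protein that NFE2L2 encodes. All mice were male FVB/NJ, and RNA came from fresh frozen liver. The other 9 libraries, which entered the fit to share its estimate of spread, were 3 each of CTNNB1-NFE2L2 (S45Y-CTNNB1 with G31A-NFE2L2), NFE2L2-MET (G31A-NFE2L2 with hMET) and wild-type (WT) liver. The labels give no age, delivery method, promoter, time of harvest or share of tumour in the sampled tissue, and they do not say that libraries came from separate animals. The p-values therefore set each difference against the spread between samples, estimated over all 15 libraries, and not against a known spread between animals. In bulk tissue, fewer cells of a type and less RNA per cell cannot be told apart.

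NRF2 is a transcription factor that KEAP1 presents to the CUL3 ubiquitin ligase, so that it is steadily degraded. G31 lies in the short NRF2 motif that KEAP1 grips, and changes there let NRF2 escape and enter the nucleus, where it pairs with small MAF proteins on antioxidant response elements. Its known targets make and use glutathione, reduce quinones and peroxides, supply NADPH and export conjugated compounds. S45 is a residue whose phosphorylation starts the tagging of β-catenin for breakdown, and active β-catenin gives hepatocytes features of the pericentral zone, the zone around the central vein. MET, a receptor tyrosine kinase, binds hepatocyte growth factor.

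The 6 libraries held 15123917 to 20702618 gene counts each. Of 24411 genes in the files, 14098 had enough counts to be tested, and levels below are CPM, each count scaled to a common library total after TMM normalization. On the first principal component, which carried 72.4% of the variance of these libraries, the groups fell on opposite sides. CTNNB1-NFE2L2-MET replicate 1 lay further out on it than replicates 2 and 3 (−74.3 against −39.9 and −32). That library also stood apart from its other replicates on the second component (12.1%). Some properties of the libraries followed the groups. The TMM factor was 1.12 to 1.15 in CTNNB1-NFE2L2-MET and 0.926 to 0.979 in CTNNB1-MET, and 8.5 to 9.11% against 7.93 to 8.2% of reads fell in no annotated gene. Further, 8.69 to 11.2% of reads were unmapped in CTNNB1-NFE2L2-MET, against 15.8 to 19.1% in CTNNB1-MET, so the share of unmapped reads and the introduced NFE2L2 cannot be told apart. With a term for that share the fit called 220 genes higher and 68 lower in place of the counts below. Of 267 called genes that the naming rule picked, 62 kept their calls under that term, 193 lost them and 12 changed sign. Of the lists described below, 8 genes of glutathione synthesis, 9 glutathione S-transferases, 8 carbonyl detoxification genes, 4 genes of the aryl hydrocarbon receptor pathway and 1 interferon response gene were called higher under it and 3 fatty acid synthesis genes lower, while the ATF4, MHC class II and hepatocyte transcription factor lists kept no call. Counts under it for some other lists stand with the list or in the closing section. The word ADDED stands in the file names of 1 WT library and of replicate 3 of both groups compared, and its meaning is not given. The summed level of 10 hepatocyte markers was 81739 to 95563 CPM in CTNNB1-NFE2L2-MET and 157850 to 178920 CPM in CTNNB1-MET.

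CTNNB1-NFE2L2-MET differed from CTNNB1-MET in 4765 of 14098 genes (33.8%) at an adjusted p under 0.05. Of these, 2597 rose (18.4%) and 2168 fell (15.4%). The counts of list members that rose or fell are to be read beside these shares. A change of at least 2-fold was called for 1814 genes (12.9%), 1130 up and 684 down, and at least 4-fold for 366 up and 136 down. The median log2 fold change of all tested genes was −0.01, and the groups did not overlap for 3591 genes higher and 3395 genes lower in CTNNB1-NFE2L2-MET. Scaling by total counts moved that median to 0.26 and the split to 4970 higher and 1038 lower. More genes rose than fell in the lists of glutathione, quinone and NADPH metabolism, efflux transporters, cell division and macrophage markers, and more fell than rose in the periportal, secreted-protein, fatty acid synthesis and amino acid breakdown lists. The counts ignore strand, so a gene that overlaps another on the opposite strand is uncertain, which applies to Ctnnb1, Gipc2, Ftl1, Trf, Mafk, Sqstm1, Mafg, Gclm, Gstz1, Prdx2, Txnip, Nqo2, Tkt, Abcb1b, Ugdh, Ugp2, Dnajb9, Psmb5, Axin2, Cyp2c29, Glul, Ahsg, Klkb1, Cebpa, Me1, Pkm, Fen1, Tk1, Hgf, Crim1, Slc2a1, Golm1, Igf2, A1bg, Cyp2a4, Cd276, Cx3cr1, Eng, Ecm1, Keap1, Cyp2f2, Ccnd1, Cd274, Alas2, Tef, Cdk6, Ndufb8, Cox6c, Ahr and Arntl. Such overlaps of Krt5, Slc22a12, G6pdx, Igtp and Psme1 are given where these genes are described.

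**Figure D1:**
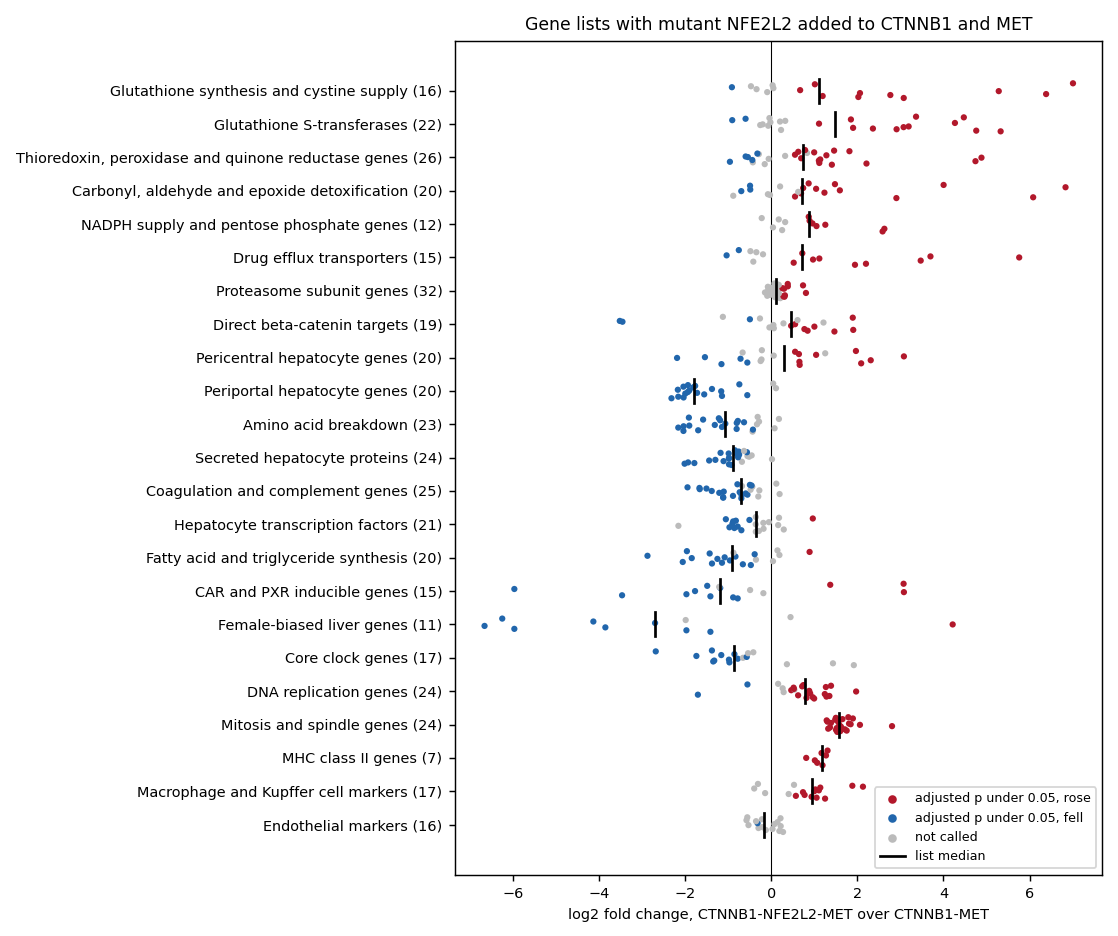
Each point is a tested gene of the list named at the left (number of tested genes in brackets), placed by its log2 fold change of CTNNB1-NFE2L2-MET over CTNNB1-MET. Red points rose and blue points fell at an adjusted p under 0.05, grey points were not called, and the black tick is the list median. The glutathione S-transferase list has its median at 1.48 and the periportal list at −1.79.

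The mouse genes that correspond to the introduced sequences differed by small amounts. Nfe2l2 stood at 63.4, 65.1 and 59.2 CPM in CTNNB1-NFE2L2-MET and 62.4, 56.4 and 50.1 CPM in CTNNB1-MET, with overlapping groups and a log2 difference of 0.15 ± 0.20 (SE, adjusted p = 0.58). Ctnnb1 averaged 439 ± 25.6 CPM in CTNNB1-NFE2L2-MET and 339 ± 42.0 CPM in CTNNB1-MET (SD, n = 3 each), a log2 difference of 0.37 (adjusted p = 0.0193) that lost its call without CTNNB1-NFE2L2-MET replicate 1 or 3 or CTNNB1-MET replicate 2 or 3, and without the libraries marked ADDED (adjusted p = 0.122). Met averaged 83.2 ± 3.73 CPM in CTNNB1-NFE2L2-MET and 70.0 ± 4.45 CPM in CTNNB1-MET and was not called (adjusted p = 0.214). Only MET is labelled as human, and the counts do not separate introduced from endogenous transcripts. The level of Nfe2l2 RNA therefore does not check the labels, and the genes that NRF2 is known to drive are given next.

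Among 16 regulators and partners of NRF2, 4 rose and 2 fell, with a median log2 change of −0.02. This is near the 18.4% of all genes that rose and the 15.4% that fell, so the list as a whole did not stand out. Mafk and Mafg, small MAF proteins that pair with NRF2, rose by 0.70 ± 0.12 and 0.45 ± 0.11 on the log2 scale (SE). Sqstm1, the autophagy receptor p62 that can bind KEAP1, averaged 680 ± 120 CPM in CTNNB1-NFE2L2-MET against 429 ± 26.9 CPM in CTNNB1-MET (SD, n = 3), an adjusted p of 0.00497. Keap1 itself was higher by 0.34 ± 0.10 (adjusted p = 0.0118), and its call was lost without CTNNB1-NFE2L2-MET replicate 1 or CTNNB1-MET replicate 2. Nfe2l3, the NRF2 relative NRF3, fell to 0.461 ± 0.109 CPM in CTNNB1-NFE2L2-MET, against 1.76 ± 0.621 CPM in CTNNB1-MET.

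Quinone, peroxide and thioredoxin genes held some of the clearest changes. Nqo1, the NAD(P)H quinone reductase that is widely used as a readout of NRF2, stood at 295, 261 and 249 CPM in CTNNB1-NFE2L2-MET, against 9.13, 10.9 and 7.36 CPM in CTNNB1-MET. Srxn1, the sulfiredoxin that restores oxidised peroxiredoxins, stood at 2120, 1891 and 1826 CPM, against 79.7, 76.7 and 61.7 CPM in CTNNB1-MET. Txnrd1, the cytosolic thioredoxin reductase, stood at 653, 624 and 594 CPM, against 129, 143 and 132 CPM in CTNNB1-MET. For all 3 genes every CTNNB1-NFE2L2-MET library lay far above every CTNNB1-MET library. The folds were 29.5 for Nqo1 (log2 4.88 ± 0.19, adjusted p = 2.58e-10), 26.8 for Srxn1 (log2 4.74 ± 0.24, adjusted p = 6.1e-09) and 4.63 for Txnrd1 (log2 2.21 ± 0.14, adjusted p = 5.59e-08). Of the 26 genes in this list 15 rose and 5 fell, with a median log2 change of 0.74, beside 18.4% and 15.4% of all genes. Blvrb, a biliverdin and flavin reductase, rose by 1.82 ± 0.12. Hmox1, the haem oxygenase, averaged 62.1 ± 11.2 CPM against 31.1 ± 3.35 CPM in CTNNB1-MET, a log2 rise of 1.00 that is modest beside Nqo1. The 5 members that fell were Txnip, the inhibitor of thioredoxin (−0.96), Gpx1, a glutathione peroxidase (−0.59), Prdx2, a peroxiredoxin (−0.44), Nqo2, a second quinone reductase (−0.54), and Sod2, the mitochondrial superoxide dismutase (−0.32). Fewer of these falls were called without CTNNB1-NFE2L2-MET replicate 1 (3), CTNNB1-MET replicate 2 (3) or CTNNB1-MET replicate 3 (2), and with scaling by total counts (1).

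Of 16 genes of glutathione synthesis and cystine supply 10 rose and 1 fell, with a median log2 change of 1.10. Slc7a11, the cystine importer xCT, stood at 668, 454 and 480 CPM in CTNNB1-NFE2L2-MET, against 7.05, 8.57 and 3.76 CPM in CTNNB1-MET. Gclc, the catalytic subunit of the rate-limiting glutamate-cysteine ligase, stood at 2339, 1894 and 1993 CPM, against 249, 266 and 223 CPM in CTNNB1-MET. The groups were widely separated for both genes, at 83.4-fold for Slc7a11 (log2 6.38 ± 0.47, adjusted p = 1.07e-06) and 8.44-fold for Gclc (log2 3.08 ± 0.23, adjusted p = 1.95e-07). Gclm, the modifier subunit of that ligase, rose 4.07-fold, and the glutathione reductase Gsr rose 6.80-fold. Gpx2, a glutathione peroxidase known from gut epithelium, stood at 90.5, 86.1 and 69.7 CPM against 0.797, 0.992 and 0.209 CPM in CTNNB1-MET. Ggt1, which breaks down extracellular glutathione, averaged 33.5 ± 13.8 CPM against 0.873 ± 0.262 CPM in CTNNB1-MET. Both were therefore near absent in CTNNB1-MET, with log2 rises of 7.01 ± 0.34 and 5.28 ± 0.35. Cth, which makes cysteine from cystathionine, went the other way and fell by 0.91 ± 0.19 on the log2 scale (adjusted p = 0.00241).

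**Figure D2:**
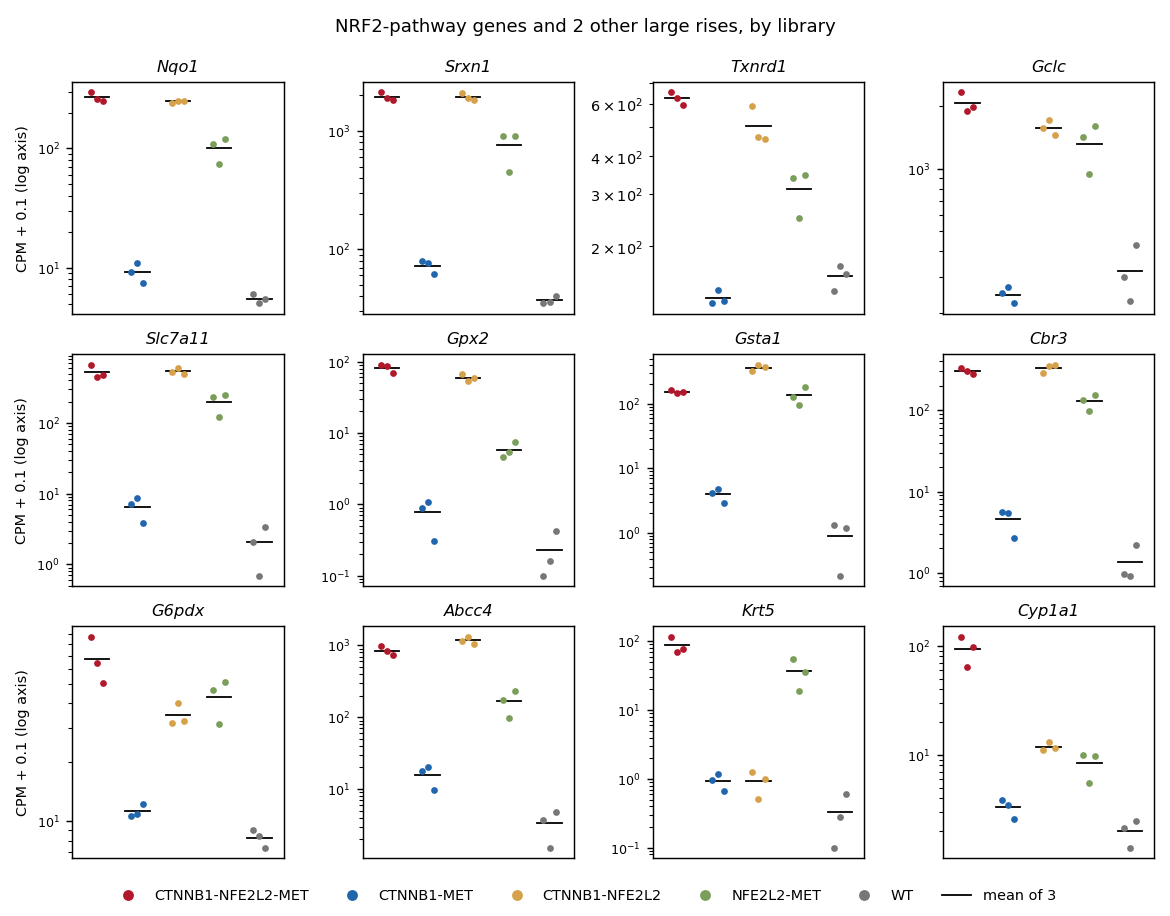
CPM (log axis, 0.1 added) of 12 genes in every library, with CTNNB1-NFE2L2-MET at the left, CTNNB1-MET beside it, then CTNNB1-NFE2L2, NFE2L2-MET and WT. Points are libraries and bars are means of 3. For Nqo1 the CTNNB1-NFE2L2-MET libraries sit between 249 and 295 CPM and the CTNNB1-MET libraries between 7.36 and 10.9 CPM, whereas Krt5 is high in both groups that hold NFE2L2 together with MET.

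Glutathione S-transferases, which join glutathione to reactive compounds, rose in 12 of 22 genes and fell in 2, with a median log2 change of 1.48. Gsta1 averaged 154 ± 6.32 CPM in CTNNB1-NFE2L2-MET against 3.87 ± 1.01 CPM in CTNNB1-MET (SD, n = 3), a log2 rise of 5.33 ± 0.34. The near-identical predicted copies Gm10639 and Gm3776 rose by 5.59 and 5.35. Reads that map to more than 1 of the 3 genes were left out of the counts, so the level of each is uncertain. Gstm1 was among the most abundant transcripts that rose, at 9552, 11090 and 9188 CPM against 1621, 1922 and 2262 CPM in CTNNB1-MET. Gstm4 rose 9.13-fold and Gstp2 19.2-fold, and members of the Gstm and Gstp families likewise share sequence. Mgst3, a microsomal family member, rose 10.3-fold. The mitochondrial and peroxisomal Gstk1 (−0.90 ± 0.16) and Gstz1 of tyrosine breakdown (−0.60 ± 0.15) fell.

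Carbonyl, aldehyde and epoxide detoxification genes rose in 12 of 20 cases and fell in 3, with a median log2 change of 0.72. Cbr3, a carbonyl reductase, stood at 326, 301 and 278 CPM in CTNNB1-NFE2L2-MET, against 5.52, 5.39 and 2.61 CPM in CTNNB1-MET. Aldh3a1, an aldehyde dehydrogenase, stood at 48.2, 24.8 and 20.1 CPM, against 0.306, 0.496 and 0.0522 CPM in CTNNB1-MET. The Cbr3 libraries were tight within each group, while Aldh3a1 was near 0 in CTNNB1-MET and varied more in CTNNB1-NFE2L2-MET. The log2 rise was 6.08 ± 0.31 for Cbr3 (adjusted p = 1.98e-08) and 6.83 ± 0.56 for Aldh3a1 (adjusted p = 1.48e-06, and 7.45 without CTNNB1-MET replicate 2). Ptgr1, a prostaglandin reductase that also acts on aldehydes, rose 16.03-fold and Cbr1 7.50-fold. Akr7a5, an aflatoxin aldehyde reductase, fell by 0.69 ± 0.15, as did Aldh9a1 (−0.49 ± 0.13) and the epoxide hydrolase Ephx2 (−0.49 ± 0.15). The call of Ephx2 was lost without CTNNB1-NFE2L2-MET replicate 1 or CTNNB1-MET replicate 2 or 3 and with scaling by total counts (adjusted p = 0.246).

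NADPH supply followed, with 7 of 12 genes higher, none lower and a median log2 change of 0.88. G6pdx, the entry enzyme of the pentose phosphate pathway, stood at 87.0, 64.4 and 50.9 CPM in CTNNB1-NFE2L2-MET, against 10.6, 10.8 and 12.2 CPM in CTNNB1-MET. The lowest CTNNB1-NFE2L2-MET library was thus several times above the highest CTNNB1-MET library (log2 2.59 ± 0.21, adjusted p = 6.68e-07). G6pdx overlaps Ikbkg on the opposite strand and the counts ignore strand. Pgd, the next oxidative step, rose 6.18-fold, the transketolase Tkt 2.39-fold, the transaldolase Taldo1 2.07-fold and the malic enzyme Me1 1.85-fold. Scaling by total counts called 11 of the 12 genes higher, and the term for unmapped reads called 2, G6pdx and Pgd.

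Export and conjugation genes also moved. Of 15 efflux transporters 9 rose and 2 fell, with a median log2 change of 0.72. Abcc4 (MRP4), which exports conjugates across the basolateral membrane, stood at 976, 832 and 736 CPM in CTNNB1-NFE2L2-MET, against 17.6, 19.98 and 9.61 CPM in CTNNB1-MET. No library of either group came near the other (log2 5.76 ± 0.43, adjusted p = 9.4e-07). Abcc5 rose 12.97-fold, Abcb1b, a mouse form of P-glycoprotein, 4.59-fold and the canalicular exporter Abcc2 1.96-fold. Abcc6 (−1.04 ± 0.11) and the cation exporter Slc47a1 (−0.75 ± 0.19) fell. Ugdh and Ugp2, which make the UDP-glucuronic acid used in glucuronidation, rose 9.19-fold and 3.02-fold. The list of 18 glucuronidation and sulfation genes as a whole was split, with 6 higher and 6 lower.

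The promoters of these genes were searched for the core of the antioxidant response element, TGACNNNGC, on both strands of the RefSeq windows from 250 bases before to 50 bases after each start (GRCm38.p6, which is mm10). Of the 65 genes that rose in the 6 antioxidant and detoxification lists, 57 had a promoter entry, and the core was found for 13 of these (22.8%). Of the 46 members of these lists that did not rise, 40 had an entry, and 9 of these (22.5%) held the core. The share was 16.9% for the 10703 tested genes with a promoter entry. Genes without an entry were not searched. Among the windows of all 1982 risen genes with an entry the share was 18.7%. A match is a description of the letters, and within this window it did not separate the risen members from the others. Sequence further from the start was not searched, so the counts do not cover elements there. Only this spelling of the core was searched, so the similar run TGAGTCAGC, held by windows of Srxn1, Gstp1 and Gstp2, was not counted. The 5 members with the largest rises whose match lies wholly before the start are printed to show where the core stands. Each run holds the 250 bases before the start, 5′ to 3′ on the gene's strand, with the core in capitals. Where a gene has several start windows, the first with such a match is printed, and later windows of Abcc4 and Ggt1 hold a core on the gene's own strand. In all 5 printed runs the core reads on the opposite strand, so the printed letters are its reverse complement, beginning 25 bases before the start in Abcc4, 36 in Ggt1, 57 in G6pdx, 92 in Txnrd1 and 134 in Gclm.
Abcc4 chr14:118706220-118706469 (minus strand): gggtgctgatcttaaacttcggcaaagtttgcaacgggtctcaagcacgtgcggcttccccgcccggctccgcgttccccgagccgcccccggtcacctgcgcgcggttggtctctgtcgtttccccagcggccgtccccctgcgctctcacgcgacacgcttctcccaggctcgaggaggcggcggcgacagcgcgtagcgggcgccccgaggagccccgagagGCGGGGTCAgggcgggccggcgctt
Ggt1 chr10:75568412-75568661 (plus strand): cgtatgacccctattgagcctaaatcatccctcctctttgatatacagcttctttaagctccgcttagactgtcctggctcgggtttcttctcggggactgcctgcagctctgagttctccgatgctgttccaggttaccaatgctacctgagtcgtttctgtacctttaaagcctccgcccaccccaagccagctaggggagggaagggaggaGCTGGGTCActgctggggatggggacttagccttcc
G6pdx chrX:74428881-74429130 (minus strand): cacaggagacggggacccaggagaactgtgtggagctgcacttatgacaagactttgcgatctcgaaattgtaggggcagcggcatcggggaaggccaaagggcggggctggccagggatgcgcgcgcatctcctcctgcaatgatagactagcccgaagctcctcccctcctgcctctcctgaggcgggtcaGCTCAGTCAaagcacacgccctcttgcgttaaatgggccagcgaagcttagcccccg
Txnrd1 chr10:82858956-82859205 (plus strand): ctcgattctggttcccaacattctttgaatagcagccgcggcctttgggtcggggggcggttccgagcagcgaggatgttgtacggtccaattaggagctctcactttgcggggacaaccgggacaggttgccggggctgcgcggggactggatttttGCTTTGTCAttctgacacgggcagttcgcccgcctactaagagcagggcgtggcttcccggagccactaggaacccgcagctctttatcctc
Gclm chr3:122245307-122245556 (plus strand): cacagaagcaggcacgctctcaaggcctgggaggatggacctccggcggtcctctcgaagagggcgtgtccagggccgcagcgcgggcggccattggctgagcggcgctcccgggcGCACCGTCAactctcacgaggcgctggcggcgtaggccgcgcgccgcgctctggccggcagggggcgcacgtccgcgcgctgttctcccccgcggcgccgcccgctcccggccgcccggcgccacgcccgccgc

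The largest rises outside these lists were of mixed kinds. Krt5, a keratin of basal epithelial cells, stood at 115.8, 70.8 and 77.5 CPM in CTNNB1-NFE2L2-MET, against 0.858, 1.06 and 0.574 CPM in CTNNB1-MET. It was the gene with the largest log2 rise among genes whose log2 CPM averaged 3 or more, at 6.75 ± 0.51 (adjusted p = 1.6e-06). Krt5 was also at 55.7, 18.9 and 35.7 CPM in NFE2L2-MET but at 1.16, 0.418 and 0.889 CPM in CTNNB1-NFE2L2, and CTNNB1-NFE2L2-MET differed from CTNNB1-NFE2L2 by 6.72 on the log2 scale (adjusted p = 4.7e-06). Krt5 was thus high in both groups that hold G31A-NFE2L2 and hMET together. Tekt5, a tektin known from sperm flagella, averaged 62.4 ± 6.14 CPM against 1.10 ± 0.343 CPM in CTNNB1-MET, and it was near that level in CTNNB1-NFE2L2 (60.5 to 70.4 CPM) as well. Slc22a12, the urate transporter of the kidney, rose by 5.20 ± 0.44 and Gipc2, a PDZ-domain scaffold protein, by 5.19 ± 0.23. Krt5 overlaps Gm44323 and Slc22a12 overlaps Nrxn2 on opposite strands.

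Genes of the aryl hydrocarbon receptor (AHR) pathway rose in 5 of 9 cases, none fell, and the list median was 1.05. Cyp1a1, the classical AHR target, stood at 120, 64.1 and 97.2 CPM in CTNNB1-NFE2L2-MET, against 3.74, 3.40 and 2.51 CPM in CTNNB1-MET. It was at 10.97, 13.01 and 11.4 CPM in CTNNB1-NFE2L2 and at 9.84, 5.39 and 9.68 CPM in NFE2L2-MET, so the libraries with all 3 introduced genes were the highest of the series. The difference from CTNNB1-MET was 4.87 ± 0.29 on the log2 scale (adjusted p = 5.91e-08) and that from CTNNB1-NFE2L2 was 2.99 (adjusted p = 5e-06). Ahr itself rose 2.07-fold and Cyp1a2, which is also a pericentral gene, 4.25-fold. Nqo1 and Aldh3a1 belong to this list as well as to the NRF2 lists.

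Other stress-response lists were less uniform. Of 20 genes of the ATF4 and amino acid stress list 9 rose and none fell, with a median of 0.83. Asns, the asparagine synthetase, stood at 69.1, 29.4 and 32.1 CPM in CTNNB1-NFE2L2-MET, against 6.56, 4.96 and 3.08 CPM in CTNNB1-MET, with replicate 1 the highest by far. Psat1 of serine synthesis rose 4.38-fold and Mthfd2 of mitochondrial folate metabolism 3.23-fold. Of 15 unfolded protein response genes 1 rose (Dnajb9, 1.27 ± 0.25) and 1 fell (Herpud1, −1.22 ± 0.30). Of 32 proteasome subunit genes 9 rose, among them Psmb5 (0.81 ± 0.09) and Psmd11 (0.74 ± 0.10), with a list median of 0.10, and 24 were called higher with scaling by total counts.

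Direct β-catenin targets were compared because both groups carry S45Y-CTNNB1. Of 19 such genes 8 rose and 3 fell, with a median log2 change of 0.46. Axin2, the feedback inhibitor of the pathway, stood at 50.9, 47.2 and 40.9 CPM in CTNNB1-NFE2L2-MET, against 18.1, 15.7 and 16.4 CPM in CTNNB1-MET. Nkd1, another feedback inhibitor, stood at 92.4, 79.0 and 75.1 CPM, against 26.2, 24.1 and 15.7 CPM in CTNNB1-MET. The groups were well apart for both genes, with log2 rises of 1.47 ± 0.22 (adjusted p = 0.000174) and 1.90 ± 0.20 (adjusted p = 6.79e-06). Lgr5, a receptor for R-spondins, was higher by 0.85 ± 0.23, and this call was lost without CTNNB1-MET replicate 3 (adjusted p = 0.0548) and without the libraries marked ADDED (0.0874). Ccnd1, cyclin D1, was not called (0.28 ± 0.19, adjusted p = 0.259). Wif1 and Dkk4, secreted inhibitors of Wnt signalling, were lower at very low levels, with 0.0664 ± 0.0312 CPM against 0.837 ± 0.607 CPM in CTNNB1-MET for Wif1 (log2 −3.52, and −2.80 without CTNNB1-MET replicate 1), and the Dkk4 change was −3.45 (−4.56 without CTNNB1-NFE2L2-MET replicate 3). The count of risen targets was 5 without CTNNB1-NFE2L2-MET replicate 1 or CTNNB1-MET replicate 3.

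The zonal genes of the liver lobule moved unevenly on the pericentral side and downward on the periportal side. Of 20 pericentral genes 9 rose and 5 fell, with a median of 0.31. Cyp2a5, which is both pericentral and a known NRF2 target, rose to 9856, 12884 and 13480 CPM in CTNNB1-NFE2L2-MET, against 1392, 1675 and 1214 CPM in CTNNB1-MET, and had the highest CPM, averaged over the 6 libraries, of the genes that rose. Cyp2a5 is nearly identical to Cyp2a4, and reads that map to both were left out of the counts, so the level of each is uncertain. Glul, the glutamine synthetase that marks the last hepatocytes around the central vein, rose 1.58-fold (adjusted p = 0.00271). Cyp2e1, an ethanol-oxidising P450 of the same zone, fell to 2110, 3666 and 3586 CPM in CTNNB1-NFE2L2-MET, against 6404, 7366 and 7076 CPM in CTNNB1-MET. Cyp2c29 fell by 2.19 ± 0.44 (by 2.78 without CTNNB1-NFE2L2-MET replicate 3). Glul and Cyp2e1 therefore differed in direction within the pericentral list. The count of pericentral genes that fell was 2 to 5 when single libraries were left out and lowest without CTNNB1-NFE2L2-MET replicate 1.

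Periportal genes fell in 18 of 20 cases and none rose, with a median of −1.79. Cyp2f2, a periportal P450, stood at 108, 168 and 261 CPM in CTNNB1-NFE2L2-MET, against 661, 964 and 1048 CPM in CTNNB1-MET. Cps1, which commits ammonia to the urea cycle, stood at 354, 404 and 754 CPM, against 1429, 2157 and 2204 CPM in CTNNB1-MET. Neither pair of groups overlapped, and the log2 changes were −2.32 ± 0.46 (adjusted p = 0.00202) and −1.94 ± 0.37 (adjusted p = 0.00132). Uroc1 and Hal of histidine breakdown fell by 1.90 ± 0.23 and 2.03 ± 0.32. Aldh1b1, a mitochondrial aldehyde dehydrogenase, fell by 1.38 ± 0.17 and kept its call with the term for unmapped reads, under which it was the 1 periportal gene called lower. Of 10 urea cycle and ammonia genes 7 fell, among them Asl (−1.58 ± 0.21) and Arg1 (−1.16 ± 0.22), and the 1 that rose was Glul. Ass1, the remaining urea cycle synthetase, had 0 to 4 counts in these libraries and was not tested. Too few of the 15 libraries, WT liver included, passed the count filter for it, so its low count is not particular to these groups. The reason for the low count was not tested.

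**Figure D3:**
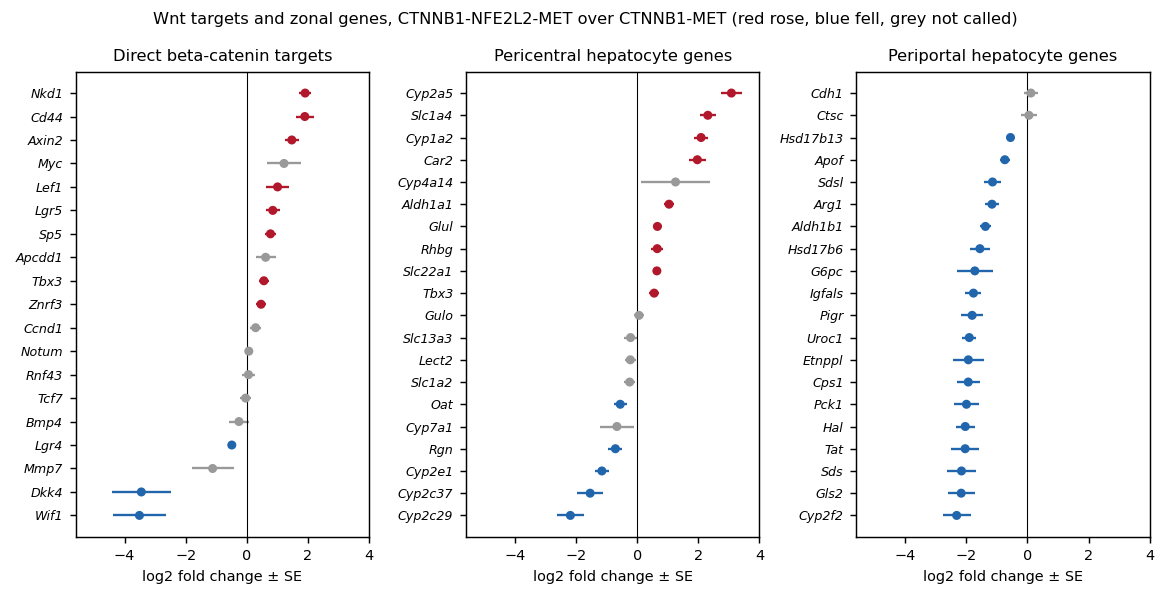
Log2 fold change of CTNNB1-NFE2L2-MET over CTNNB1-MET with its standard error for the tested direct β-catenin targets, pericentral genes and periportal genes. Red rose, blue fell and grey was not called at an adjusted p of 0.05. The 18 periportal genes that fell lie to the left of 0, while the other panels hold genes on both sides.

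Secreted products of hepatocytes fell in 18 of 24 cases and none rose, with a median of −0.88. Alb stood at 54976, 48189 and 51333 CPM in CTNNB1-NFE2L2-MET, against 96920, 96155 and 99345 CPM in CTNNB1-MET. The log2 change of Alb was −0.92 ± 0.20 (adjusted p = 0.00265). Ahsg (fetuin A) fell by 1.18 ± 0.16, Apoa1 (the main protein of HDL) by 1.11 ± 0.17 and Serpina1b (an α1-antitrypsin copy of a near-identical family) by 1.78 ± 0.26. Trf, transferrin, was lower by 0.99 ± 0.23 and lost its call without the libraries marked ADDED (adjusted p = 0.0638), and Apoe was lower by 0.64 ± 0.18 and lost its call with scaling by total counts (adjusted p = 0.0885), without the libraries marked ADDED (0.0674) and without CTNNB1-MET replicate 3 (0.0514). Of 25 coagulation and complement genes 18 fell and none rose, with F10 (−1.12 ± 0.13) and Klkb1 (−1.38 ± 0.17) as examples.

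**Figure D4:**
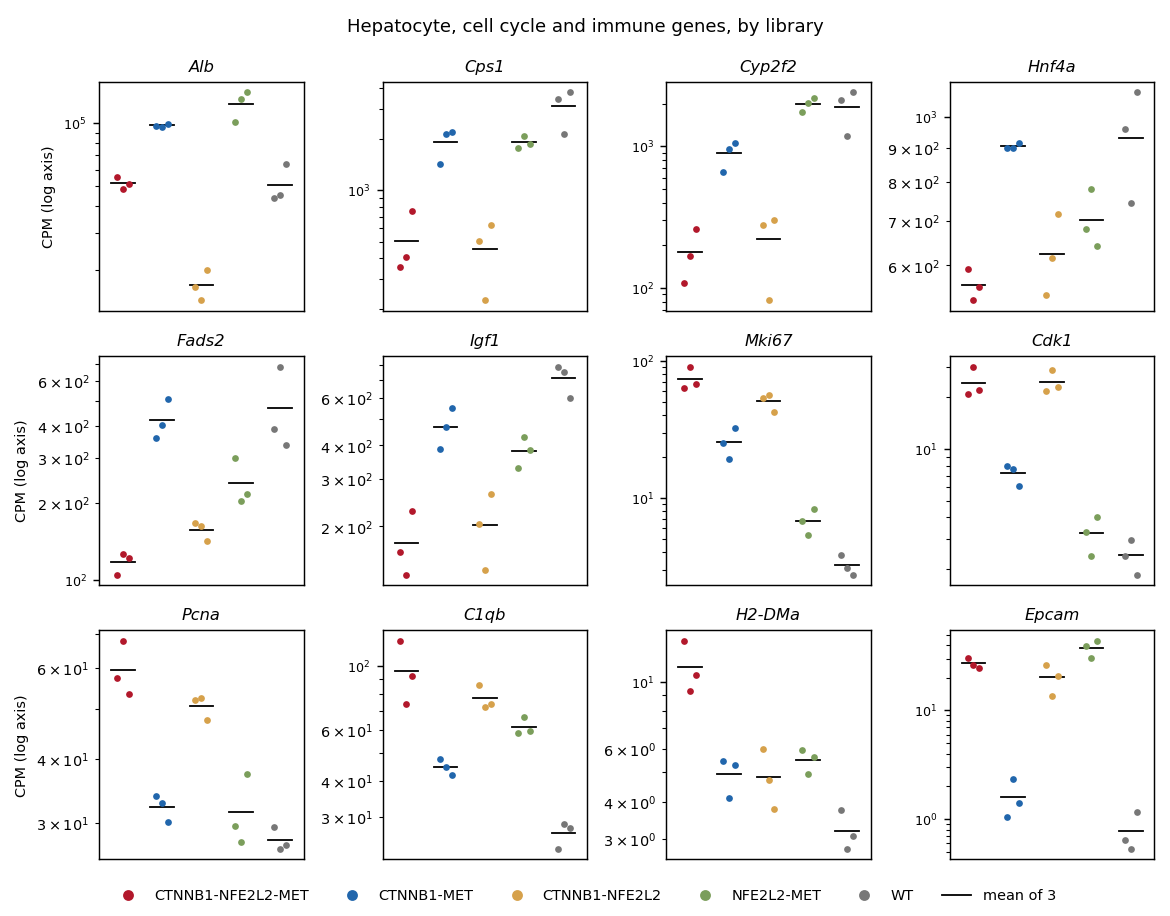
CPM (log axes) of hepatocyte genes, cell cycle genes, immune genes and Epcam in every library, with CTNNB1-NFE2L2-MET at the left, CTNNB1-MET beside it, then CTNNB1-NFE2L2, NFE2L2-MET and WT, and bars for means of 3. Alb lies between 48189 and 54976 CPM in CTNNB1-NFE2L2-MET and between 96155 and 99345 CPM in CTNNB1-MET, and Mki67 between 63.9 and 91.1 CPM and between 19.3 and 32.2 CPM in those groups.

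Transcription factors that maintain hepatocyte identity fell in 9 of 21 cases and rose in 1, with a median of −0.36. Hnf4a, the central one, stood at 592, 532 and 557 CPM in CTNNB1-NFE2L2-MET, against 900, 900 and 915 CPM in CTNNB1-MET. Each group was tight, and the log2 change was −0.69 ± 0.15 (adjusted p = 0.00203). Cebpa fell by 0.97 ± 0.19 and Ppara, the regulator of fatty acid oxidation, by 0.82 ± 0.15. Of 19 bile acid genes 8 fell and 2 rose, and Slc10a1, the main importer of bile acids, fell by 1.48 ± 0.22 on the log2 scale. Cyp7a1, the rate-limiting enzyme of bile acid synthesis, was not called (−0.66 ± 0.57, adjusted p = 0.399).

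Lipid genes fell more often than they rose. Of 20 genes of fatty acid and triglyceride synthesis 14 fell and 1 rose, with a median of −0.92. Fads2, a desaturase of polyunsaturated fatty acids, stood at 105.3, 127 and 122.1 CPM in CTNNB1-NFE2L2-MET, against 359, 406 and 508 CPM in CTNNB1-MET, and its log2 change of −1.84 ± 0.23 kept its call under every alternative that was run. Dgat2, the last step of triglyceride synthesis, fell by 1.43 ± 0.17 and Fasn, the fatty acid synthase, by 1.14 ± 0.25. The member that rose was Me1, which also supplies NADPH. Thrsp, a regulator of lipogenesis, stood at 24.7, 107 and 165 CPM, against 818, 696 and 660 CPM in CTNNB1-MET, with replicate 1 the lowest. Of 22 cholesterol synthesis genes 5 fell (3 without CTNNB1-MET replicate 3) and none rose.

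Sugar genes were split in direction and amino acid breakdown genes mostly fell. Pkm, a pyruvate kinase whose M2 form is typical of growing cells, stood at 525, 305 and 335 CPM in CTNNB1-NFE2L2-MET, against 80.1, 84.0 and 70.3 CPM in CTNNB1-MET (log2 2.31 ± 0.27, adjusted p = 2.94e-05). Slc2a1, the glucose transporter GLUT1, rose 2.18-fold. Fbp1 and Pck1 of gluconeogenesis fell by 1.78 ± 0.20 and 1.995 ± 0.40, as did Slc2a2, the hepatocyte glucose transporter, by 1.13 ± 0.16. The list of 22 glycolysis and gluconeogenesis genes held 8 that rose and 6 that fell (5 rose without CTNNB1-NFE2L2-MET replicate 1 or CTNNB1-MET replicate 2). Amino acid breakdown genes fell in 17 of 23 cases, none rose, and the median was −1.07. Hpd of tyrosine breakdown fell by 1.70 ± 0.23, Ftcd of histidine breakdown by 1.31 ± 0.17 and Prodh2 of hydroxyproline breakdown by 1.07 ± 0.14.

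The largest falls included genes at high levels in CTNNB1-MET. Akr1c18, a hydroxysteroid dehydrogenase that inactivates progesterone, stood at 2.92, 6.49 and 5.84 CPM in CTNNB1-NFE2L2-MET, against 135, 94.6 and 80.2 CPM in CTNNB1-MET, and no library of the other 3 groups passed 0.884 CPM. Dlk1, an imprinted membrane protein of fetal hepatoblasts, stood at 1.84, 4.95 and 3.11 CPM, against 62.8, 33.0 and 83.2 CPM in CTNNB1-MET. Their log2 changes of −4.34 ± 0.35 (adjusted p = 1.9e-06) and −4.17 ± 0.38 (adjusted p = 5.15e-06) were the largest falls among genes whose log2 CPM averaged 3 or more. Several genes of this kind are known for higher expression in female than in male mouse liver, although all mice were labelled male. Of 11 such female-biased genes 8 fell and 1 rose, with a median of −2.70. Cyp3a16 stood at 0.410, 0.577 and 1.41 CPM, against 115, 87.4 and 42.9 CPM in CTNNB1-MET, and A1bg at 0.614, 0.529 and 1.41 CPM, against 87.9, 70.7 and 37.3 CPM in CTNNB1-MET. The log2 changes were −6.66 ± 0.50 for Cyp3a16 (−7.34 without CTNNB1-NFE2L2-MET replicate 3) and −6.24 ± 0.46 for A1bg. Sult3a1, a sulfotransferase, fell by 4.13 ± 0.40. Cyp2a4, a female-biased testosterone hydroxylase that is nearly identical to Cyp2a5, was the 1 member that rose (4.21 ± 0.52). Of 13 male-biased genes 10 fell and none rose, among them Slco1a1 (−1.67 ± 0.34) and Cyp7b1 (−1.59 ± 0.35). Genes of the Cyp3a and Sult families share sequence, so single members are uncertain.

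**Figure D5:**
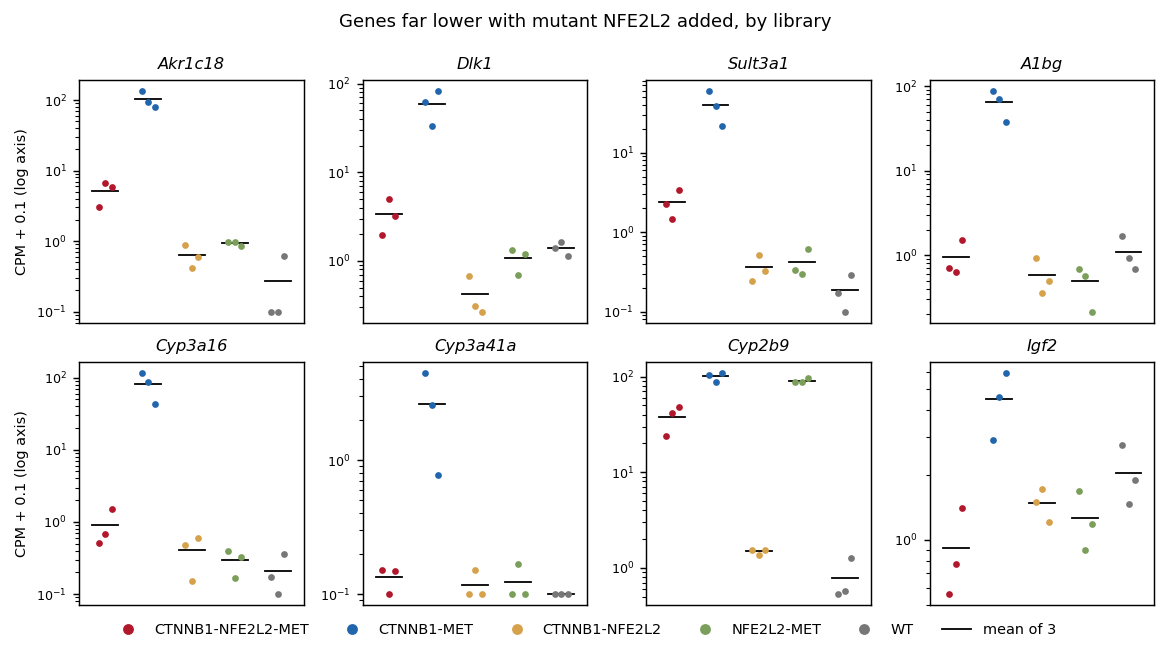
CPM (log axis, 0.1 added) of 8 genes that fell in CTNNB1-NFE2L2-MET, in every library, with CTNNB1-NFE2L2-MET at the left, CTNNB1-MET beside it, then CTNNB1-NFE2L2, NFE2L2-MET and WT, and bars for means of 3. Akr1c18 lies between 2.92 and 6.49 CPM in CTNNB1-NFE2L2-MET and between 80.2 and 135 CPM in CTNNB1-MET. Cyp2b9 is at high levels in NFE2L2-MET too.

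Cell division genes rose. All 24 mitosis and spindle genes rose, with a median of 1.58, and 24 were called with each single library left out. Mki67, the proliferation marker Ki-67, stood at 63.9, 91.1 and 67.9 CPM in CTNNB1-NFE2L2-MET, against 25.3, 19.3 and 32.2 CPM in CTNNB1-MET. Cdk1, the kinase that starts mitosis, stood at 20.8, 30.1 and 21.9 CPM, against 7.91, 7.65 and 6.11 CPM in CTNNB1-MET. The groups did not overlap, with log2 rises of 1.53 ± 0.20 (adjusted p = 4.58e-05) and 1.75 ± 0.20 (adjusted p = 1.15e-05). Bub1 of the spindle checkpoint had the largest rise of the list, at 2.81 ± 0.31. DNA replication genes rose in 18 of 24 cases and fell in 2, with a median of 0.78. Pcna, the polymerase clamp, rose by 0.88 ± 0.12 and Fen1, a flap nuclease, by 1.27 ± 0.16. The members that fell were Mcm10 (−1.70 ± 0.39) and Tk1, whose call was lost without CTNNB1-NFE2L2-MET replicate 1 or 3 or CTNNB1-MET replicate 1 or 2, with scaling by total counts, with no count filter and in both fits that treat the ADDED libraries apart. With the term for unmapped reads 4 mitosis genes and 1 replication gene were called higher.

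Growth factor signalling genes moved in both directions. Dusp4, a phosphatase induced by ERK signalling, rose 4.88-fold (41.0, 27.0 and 26.4 CPM against 7.48, 5.53 and 6.26 CPM in CTNNB1-MET), whereas Spry4, a feedback inhibitor of receptor kinases, fell by 1.59 ± 0.23. Of 15 ERK output genes 4 rose and 1 fell, beside 18.4% and 15.4% of all genes. Of 15 tested MET and growth factor receptor genes 3 rose and 5 fell, with a median of −0.27. Egfr, the receptor of epidermal growth factor, fell by 1.42 ± 0.32 and Axl, another receptor kinase, rose by 0.84 ± 0.17. Hgf, the ligand of MET, was at 3.60 ± 0.771 CPM against 1.73 ± 0.161 CPM in CTNNB1-MET (adjusted p = 0.00784), and lost its call without the libraries marked ADDED (adjusted p = 0.0508). YAP target genes rose in 6 of 11 cases and fell in 1, with Ajuba (2.26 ± 0.31) and Crim1 (1.31 ± 0.14) as examples. Egln3, an oxygen-sensing hydroxylase, rose 4.10-fold, in a list of 13 tested hypoxia and angiogenesis genes of which 5 rose and 3 fell.

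Tumour and fetal markers were mixed. Of 17 tested members of this list 5 rose, 2 fell and 10 were not called, with a median of 0.41, beside 18.4% and 15.4% of all genes. Epcam, an adhesion protein of progenitor and bile duct cells, stood at 30.5, 26.4 and 24.7 CPM in CTNNB1-NFE2L2-MET, against 1.04, 2.34 and 1.41 CPM in CTNNB1-MET, a log2 rise of 4.11 ± 0.30 (adjusted p = 3.93e-07). Golm1, a Golgi protein used as a serum marker of liver cancer, rose 2.40-fold. Gpc3, a glypican of liver tumours, stood at 665, 356 and 262 CPM, against 220, 178 and 137 CPM in CTNNB1-MET, and its call was lost without CTNNB1-NFE2L2-MET replicate 1 or CTNNB1-MET replicate 2 or 3. Afp, α-fetoprotein, stood at 1974, 881 and 763 CPM, against 926, 800 and 669 CPM in CTNNB1-MET, with overlapping groups and no call (adjusted p = 0.336). Igf2, an imprinted growth factor, fell by 2.42 ± 0.39, with 0.816 ± 0.444 CPM in CTNNB1-NFE2L2-MET against 4.40 ± 1.52 CPM in CTNNB1-MET. Epcam rose while the bile duct keratin Krt19 did not pass the test (−0.92 ± 0.37, adjusted p = 0.0643) and Krt23 fell (−2.33 ± 0.54, not called without the libraries marked ADDED). In all, 3 of 10 cholangiocyte and progenitor markers rose and 1 fell, beside 18.4% and 15.4% of all genes. Their summed level was 102 to 151 CPM in CTNNB1-NFE2L2-MET and 87.2 to 112 CPM in CTNNB1-MET.

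Markers of macrophages rose in 12 of 17 cases and none fell, with a median of 0.94. C1qb, a complement component made by Kupffer cells, stood at 122.2, 73.7 and 92.3 CPM in CTNNB1-NFE2L2-MET, against 47.4, 44.7 and 41.8 CPM in CTNNB1-MET (log2 1.11 ± 0.15, adjusted p = 5.39e-05). Adgre1, the macrophage marker F4/80, rose 2.38-fold, and Cx3cr1, a chemokine receptor of monocyte-derived cells, 4.38-fold. The summed level of the macrophage list was 801 to 1143 CPM in CTNNB1-NFE2L2-MET and 506 to 614 CPM in CTNNB1-MET, without overlap. All 7 MHC class II genes rose, with a median of 1.17 (5 rose without CTNNB1-NFE2L2-MET replicate 1 or CTNNB1-MET replicate 1 or 2). H2-Aa, an MHC class II chain, averaged 135 ± 43.6 CPM against 59.1 ± 8.06 CPM in CTNNB1-MET. Of 13 MHC class I and immunoproteasome genes 2 fell and 1 rose, beside 15.4% and 18.4% of all genes, so the list as a whole did not stand out. B2m (−0.53 ± 0.12) and H2-K1 (−0.53 ± 0.13) were lower, and both lost their calls with scaling by total counts (adjusted p = 0.1 and 0.102). Psme1, a proteasome activator subunit, overlaps Emc9 on the opposite strand. It was higher by 0.34, and its call was lost without CTNNB1-NFE2L2-MET replicate 1 or CTNNB1-MET replicate 2 and with counts of 1 strand. Dendritic cell markers rose in 3 of 8 cases and none fell, whereas 0 of 7 B and plasma cell markers were called by edgeR, 0 by DESeq2, and 0 had an unadjusted p under 0.05. T and NK cell markers were higher in 2 of 10 tested cases, near the 18.4% of all genes, and these were Klrk1 and Gzma. Neither was called without CTNNB1-MET replicate 3 (adjusted p = 0.0501 and 0.0869) or without the libraries marked ADDED (0.0635 and 0.159), and Gzma was also not called without CTNNB1-NFE2L2-MET replicate 1 or 3 or CTNNB1-MET replicate 2. Cd8a had 4 to 20 counts in these libraries and was not tested, and Cd274 (PD-L1) was not called (adjusted p = 0.0582). Of 16 endothelial markers none was called higher and 1 lower. That gene, Eng, had overlapping groups (−0.32 ± 0.10) and lost its call without any of 4 libraries in turn, with scaling by total counts, without the ADDED libraries and in the fit of the 6 libraries alone. With the term for unmapped reads no macrophage marker was called. The part that altered numbers of these cells have in the other results was not tested.

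Interferon response genes rose in 11 of 21 cases and fell in 1, with a median of 0.61 (7 rose without CTNNB1-MET replicate 2). Mx1, an antiviral GTPase, stood at 48.8, 32.9 and 38.1 CPM in CTNNB1-NFE2L2-MET, against 1.35, 2.27 and 0.992 CPM in CTNNB1-MET, which makes a log2 rise of 4.73 ± 0.34 (adjusted p = 4.05e-07). It kept its call under every alternative that was run. Igtp, an interferon-inducible GTPase that overlaps Irgm2 on the opposite strand, rose 5.68-fold, and Oas1a, an oligoadenylate synthetase, 2.95-fold. Vtcn1, the immune checkpoint ligand B7-H4, averaged 3.42 ± 0.551 CPM against 0.229 ± 0.117 CPM in CTNNB1-MET (log2 3.90 ± 0.47), and Cd276, the related B7-H3, rose 2.14-fold. Ecm1, a matrix protein of the stellate cell list, rose 7.39-fold. Of the 15 genes of that list 4 rose (2 without CTNNB1-NFE2L2-MET replicate 1 or CTNNB1-MET replicate 1), beside 18.4% of all genes.

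The same genes were then looked up in libraries outside the comparison. NFE2L2-MET against WT and CTNNB1-NFE2L2 against WT share no library with the contrast, although they share the WT libraries with each other. Unmapped reads made up 12.7 to 14.2% in NFE2L2-MET and 9.71 to 11.8% in CTNNB1-NFE2L2, against 19.8 to 25.9% in WT. Their share was thus again lower in the groups with NFE2L2, and it cannot be told apart from the introduced genes there either. Of the 2597 genes that rose, 39.9% also rose in NFE2L2-MET against WT, where 13.5% of all genes rose, and 1.66% fell there. These shared genes were 54.3% of the genes higher in NFE2L2-MET. Of the 2168 genes that fell, 28.6% also fell in NFE2L2-MET against WT (44.4% of the genes lower there), where 9.89% of all genes fell, and 5.12% rose there. In CTNNB1-NFE2L2 against WT, 68.5% of the risen genes rose (51.5% of the genes higher there), where 24.5% of all genes rose, and 61.4% of the fallen genes fell (39.0% of the genes lower there), where 24.2% of all genes fell. CTNNB1-NFE2L2 also differs from WT by the β-catenin mutant, and NFE2L2-MET by hMET. With scaling by total counts 19.8% of the risen genes also rose in NFE2L2-MET, and with the term for unmapped reads 4.41% of the fallen genes also fell there and 32.4% in CTNNB1-NFE2L2. As an example, Nqo1 stood at 108, 73.8 and 120 CPM in NFE2L2-MET and 243, 249 and 251 CPM in CTNNB1-NFE2L2, against 5.90, 4.92 and 5.32 CPM in WT.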

How the data were processed

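RNA was extracted from fresh frozen liver and sequenced as polyA libraries, per the labels' protocols. Reads were trimmed with Trimmomatic and aligned with STAR to mm10, per the submitters' processing notes; neither versions nor an annotation is given in the sources used here. The deposited files hold raw read counts per gene from the authors, and the unstranded column was used, since both strand columns held near-equal shares (49.7 to 49.9% on 1 strand). The rows for unmapped, multimapping (4.81 to 6.36% in the 6 libraries), featureless and ambiguous reads were left out of library sizes and tests.

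All 15 libraries were fitted with edgeR 4.0.16 (R 4.3.3, limma 3.58.1): filterByExpr, TMM scaling, the robust quasi-likelihood F test and Benjamini-Hochberg adjustment over all genes tested, with a threshold of 0.05. Every adjusted p comes from it unless another tool is named. CPM and log2 fold changes were computed from the deposited counts, SE is the absolute log2 change over the root of F, and figures used Python 3.11.15, pandas 2.3.3 and matplotlib 3.10.9. The scripts were tested on simulated data. No 2 libraries of a group agreed within sampling noise (chi-square per gene of 13.2 to 43.3 in the groups compared). Alternatives were RLE and total-count scaling, no count filter, 1 strand, DESeq2 1.42.0, the 6 libraries alone, a term for or omission of libraries marked ADDED, a term for the log2 ratio of unmapped to counted reads, and leaving out each library.

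The 60 gene lists and the members were chosen with earlier results of these data known. The naming rule took the introduced genes, the 10 genes that rose and the 10 that fell most where log2 CPM averaged 3 or more, the 3 most abundant called genes in each direction, the 4 smallest p in each list, members that moved against their list, and a fixed set of markers. Ggt1, Ahr, Arntl and Hamp were chosen after their values were seen. Some genes that the rule picked are not reported here. Promoter sequences and gene positions come from RefSeq, GRCm38.p6.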

Additional observations from a re-analysis of the deposited data

How the results depend on the processing

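No paired analysis was possible because replicate numbers here only follow accession order and link no libraries. Of 267 called named genes, 61 kept their calls under every alternative. Scaling by total counts gave 4970 genes higher and 1038 lower, 1 thioredoxin-list gene lower and 11 NADPH genes higher. The term for unmapped reads gave 220 higher, 68 lower and 258 at 2-fold or more. Its list counts were 9 thioredoxin-list genes higher and 0 lower, 2 NADPH genes, 3 efflux genes, 2 β-catenin targets, 1 replication gene and 4 mitosis genes higher, 1 periportal and 2 secreted-protein genes lower, 0 amino acid breakdown genes lower and 0 macrophage markers higher. Without the libraries marked ADDED, 3 thioredoxin-list genes were lower and 4 β-catenin targets higher. Leaving out 1 library gave 2 to 5 thioredoxin-list genes lower and 5 to 8 β-catenin targets higher.

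The share of risen genes that also rose in NFE2L2-MET against WT was 19.8% with total counts, 37.0% on 1 strand, 36.4% with the ADDED term, 35.9% without ADDED libraries, 37.7% with the unmapped term and 40.4 to 45.5% when single libraries were left out. The share of fallen genes that also fell there was 43.0% with total counts, 24.7% with no count filter, 32.6% with DESeq2, 23.5% with the ADDED term, 21.2% without ADDED libraries, 4.41% with the unmapped term and 26.3 to 32.4% without single libraries. In CTNNB1-NFE2L2 against WT the risen share was 61.5% with total counts and 69.1 to 75.7% without single libraries, and the fallen share 58.8% with no filter, 57.8% with the ADDED term, 32.4% with the unmapped term and 61.3 to 66% without single libraries.

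With the unmapped term the log2 change had the opposite sign for Met (−0.27), Mup9 (1.09), Sod2 (0.037), Rgn (0.23), Fgf21 (−0.62), Tk1 (0.19), Cdkn2b (−0.90), Cdk6 (−0.10), Cyc1 (0.00042), Ndufb8 (0.11), Sdhb (0.20), Cox6c (0.22), Cxcl13 (0.39) and Afp (−0.51). The causes were not tested. With 3 libraries a group, small changes and genes of few counts had the least precision.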

Other observations

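Core clock genes fell in 11 of 17 cases and none rose, with a median log2 change of −0.85 (7 fell without CTNNB1-MET replicate 3), and the labels give no time of day. Ciart, a circadian repressor, stood at 2.41, 3.56 and 5.16 CPM in CTNNB1-NFE2L2-MET, against 18.3, 25.6 and 27.6 CPM in CTNNB1-MET (−2.68 ± 0.44). Tef and Hlf, transcription factors of clock output, fell by 1.16 ± 0.24 and 0.85 ± 0.16. Arntl (BMAL1), an activator of the core clock, was not called (1.92 ± 0.73, adjusted p = 0.061). Growth hormone and IGF genes fell in 6 of 13 cases and none rose. Igf1, the circulating growth factor made by hepatocytes, averaged 173 ± 48.8 CPM in CTNNB1-NFE2L2-MET and 470 ± 82.1 CPM in CTNNB1-MET (SD, n = 3 each), and its binding protein Igfbp2 fell by 2.24 ± 0.35.

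Iron genes were split, with 6 of 18 higher and 6 lower (2 lower without CTNNB1-NFE2L2-MET replicate 2). Fth1, the ferritin heavy chain, stood at 7451, 4892 and 4318 CPM in CTNNB1-NFE2L2-MET, against 2122, 2042 and 1891 CPM in CTNNB1-MET (1.46 ± 0.19), and Tfrc, the transferrin receptor, rose by 1.18 ± 0.20. Tfr2 and Hamp (hepcidin), which belong to systemic iron sensing, fell by 0.97 ± 0.15 and 1.84 ± 0.45. Alas2, the haem synthesis enzyme of red cells, averaged 11.3 ± 1.70 CPM against 33.8 ± 3.25 CPM in CTNNB1-MET. It made up most of the summed erythroid markers (9.95 to 15.4 CPM against 31.2 to 37.0 CPM), so that sum is no separate result. Only 3 of the 7 erythroid markers were tested. The globin genes Hba-a1, Hba-a2, Hbb-bs and Hbb-bt had too few counts. Acute phase genes were mostly not called, with 3 of 18 lower, near the 15.4% of all genes that fell. Among them was Saa4 (−2.09 ± 0.36) of the Saa family, some of whose members share sequence. Of 24 oxidative phosphorylation genes 7 fell, and each lost its call without CTNNB1-NFE2L2-MET replicate 1 or CTNNB1-MET replicate 2 or with scaling by total counts.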
